A study of Mus musculus with 6 samples.

Results

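Glutamate receptors and the auxiliary proteins that travel with them were followed in RNA of the mouse lateral ganglionic eminence (LGE). The embryos were Dlx1/2 -/- mutants or wild type. The genes were chosen by name, as subunits of the AMPA, kainate, NMDA and delta receptors, metabotropic receptors, Neto proteins, cornichons and transmembrane AMPA receptor regulatory proteins (TARPs). All 34 were found in a table of 21286 genes. They are 4 AMPA, 5 kainate, 7 NMDA and 1 delta receptor subunits, 7 metabotropic receptors, 2 kainate receptor auxiliary proteins and 8 AMPA receptor auxiliary proteins. Of these, 33 held enough reads to be tested among 15326 genes. The exception was Grm6, with 1, 1 and 4 reads in the mutant libraries and 0, 1 and 1 in the wild type libraries.

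The 3 mutant libraries came from Dlx1/2 -/- embryos and the 3 wild type libraries from unaltered ones, all at embryonic day 16.5 and on one mixed background of C57BL/6J, 129S6 and CD1 mice. Dlx1 and Dlx2 are homeobox transcription factors of the ganglionic eminences, and the LGE is the embryonic source of striatal projection neurons and of olfactory bulb interneurons. The labels do not say whether a library holds 1 embryo or several, nor how much neighbouring tissue a dissection took along. Total counts were 15670067 to 16196974 in the mutant libraries and 10711630 to 16588359 in the wild type libraries, so that 3 reads correspond to 0.181 to 0.287 CPM (counts scaled to a common library size).

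Ionotropic glutamate receptors are channels built of 4 subunits that open when glutamate binds. AMPA receptors carry fast excitatory currents, NMDA receptors admit calcium and need a co-agonist, kainate receptors act on both sides of the synapse, and delta receptors bind cerebellins of the presynaptic side. Metabotropic receptors signal through G proteins instead. Auxiliary subunits such as TARPs, cornichons and Neto proteins are not channels themselves, but set how many receptors reach the surface and how fast they close. Young striatal neurons make many of these subunits before excitatory axons from the cortex and thalamus have formed mature synapses on them.

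The question was which of these genes depend on Dlx1/2 genotype at this stage, in levels and in the make-up of each receptor class. Levels are given in CPM after TMM scaling where a gene is compared between genotypes. Where genes are compared with each other, the deposited FPKM (fragments per kilobase scaled to library size) are used, divided by each library's TMM factor. Fold changes are on the log2 scale, mutant over wild type, with their standard error, and adjusted p-values are from edgeR's quasi-likelihood test with Benjamini-Hochberg adjustment over all genes tested. A gene is called at an adjusted p below 0.05. The label of the mutant libraries was checked first. Dlx2 had 16.8 ± 1.68 CPM in the mutant and 436.3 ± 29.8 in the wild type (SD, n = 3 each), a log2 fold change of −4.70 ± 0.099. Dlx1 had 122.1 ± 14.4 CPM in the mutant and 857.9 ± 35.7 in the wild type, a log2 fold change of −2.81 ± 0.103.

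Of the 33 genes tested, 12 fell and 3 rose in the mutant. The genes that fell were Gria1, Grik2, Grik3, Grid1, Grm3, Grm4, Grm5, Neto1, Cnih2, Cacng3, Cacng4 and Cacng5, and the genes that rose were Gria3, Grm8 and Cacng2. The share that fell was 36.4%, beside 12.8% of all genes tested, and the share that rose was 9.09%, beside 11.2% of all genes. The genes were chosen with earlier results of these data known, so these shares are descriptions and were not tested. A change of at least 2-fold was called in 7 genes that fell and 1 that rose, with 4.04% and 2.84% of all genes tested past the same size in those directions. The median log2 fold change of the 33 was −0.08, against 0.00 over all genes tested. All mutant libraries lay below all wild type libraries in 13 of the 33 and above them in 6, beside 21.2% and 20.7% of all genes tested. These 19 make up 57.6% of the 33, beside 41.9% of all genes tested. The 4 of them that were not called are Grik1, Grik5, Grin3a and Grin2d. In bulk tissue, fewer cells that make a gene and less RNA per cell cannot be told apart.

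**Figure D1:**
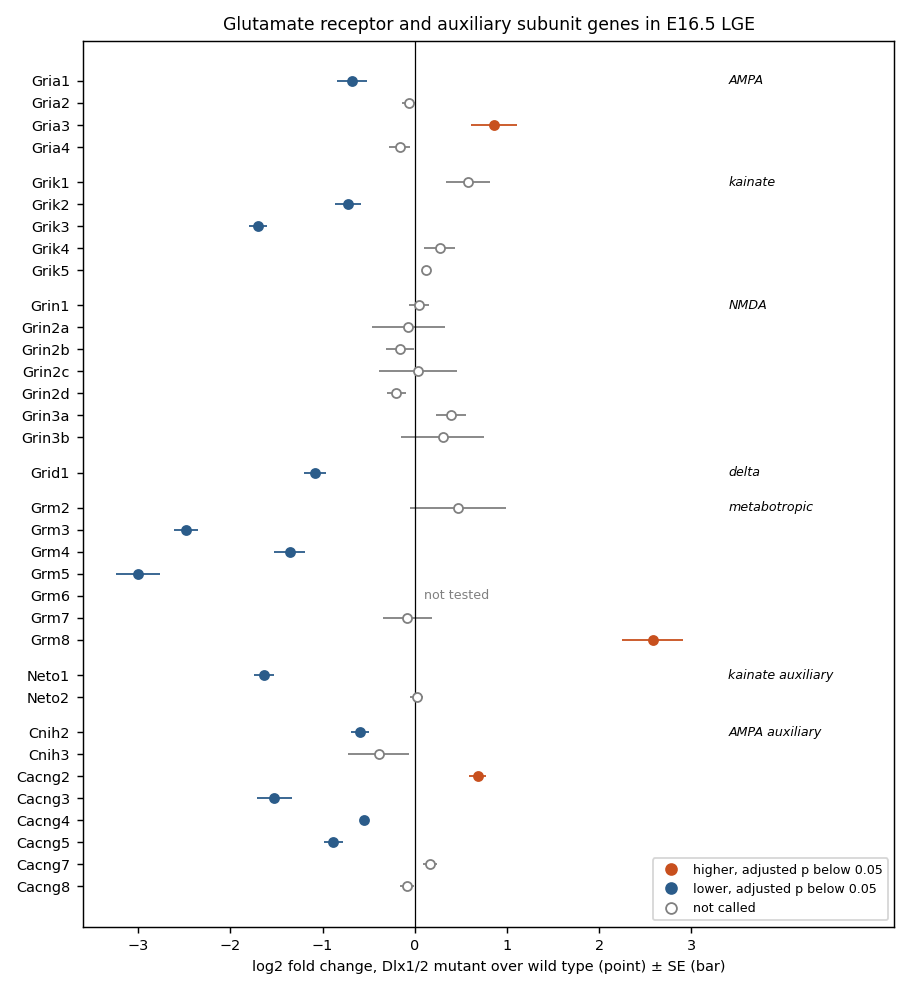
Log2 fold change of each gene, Dlx1/2 mutant over wild type (point, with its standard error as a bar, 3 libraries a genotype), grouped by receptor class and coloured by call. Changes run from −3.0 for Grm5 to 2.58 for Grm8, and the 7 NMDA receptor genes lie between −0.20 and 0.39 with none called.

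The cell type markers of the tissue differed between the genotypes in the same libraries. Beside the counts that follow, 12.8% of all genes tested were lower and 11.2% higher. Of 10 LGE and striatal markers, 8 fell and 1 rose, and their summed level was 1232 to 1337 CPM in the mutant and 3113 to 3247 CPM in the wild type. Rarb, a retinoic acid receptor of striatal neurons, had 5.51 ± 0.629 CPM in the mutant and 127 ± 3.77 CPM in the wild type. Pan-neuronal markers summed to 5276 to 5509 CPM in the mutant and 5941 to 6737 CPM in the wild type, with 3 of 10 higher and 4 lower. Progenitor markers summed to 3476 to 3743 CPM in the mutant and 2573 to 3136 CPM in the wild type, with 5 of 10 higher and none lower. Of these 5, Fabp7 (0.25 ± 0.083, adjusted p = 0.0427) lost its call in 4 of the 10 alternatives. Its adjusted p ran from 0.00933 to 0.129 over all of them. Pallial glutamatergic markers, listed here for neurons of the neighbouring cortex, summed to 159.4 to 247.5 CPM in the mutant and 28.5 to 78.8 CPM in the wild type, and 5 of the 8 tested rose. Neurod2 rose, with 58.6 ± 12.7 CPM in the mutant and 11.1 ± 5.83 CPM in the wild type. Tbr1 and Eomes, named here after their values were seen, had the opposite sign with overlapping libraries and were not called. Tbr1 had 6.91 ± 2.77 CPM in the mutant and 12.6 ± 7.08 CPM in the wild type (−0.89 ± 0.625, adjusted p = 0.182), and Eomes had 4.34 ± 2.40 CPM in the mutant and 8.62 ± 5.14 CPM in the wild type (−1.0 ± 0.764, adjusted p = 0.206). Emx1 and Slc17a7 of this list held too few reads to be tested, and their libraries overlapped. Emx1, also named after its values were seen, had 0.248 ± 0.102 CPM in the mutant and 0.553 ± 0.396 CPM in the wild type. Oligodendrocyte precursor markers summed to 126.0 to 143.3 CPM in the mutant and 78.4 to 113.0 CPM in the wild type, with 2 of 5 higher. The sums for astrocytes were 348.1 to 431.6 CPM in the mutant and 390.8 to 403.2 CPM in the wild type, with 1 of 6 tested markers higher, Slc1a2, whose call depends on the fit as given with the transporters. Erythroid markers overlapped in their sums, at 579.6 to 774.9 CPM in the mutant and 433.7 to 641.9 CPM in the wild type, with 1 of 4 tested higher. Endothelial sums were 122.5 to 125.8 CPM in the mutant and 126.2 to 144.1 CPM in the wild type, with 1 of 5 lower. That marker, Flt1 (−0.31 ± 0.080, adjusted p = 0.0401), lost its call in 7 of the 10 alternatives, DESeq2 and the replicate block among them, with adjusted p from 0.0222 to 0.123 over all of them. Microglial sums were 56.9 to 68.1 CPM in the mutant and 45.5 to 54.8 CPM in the wild type. No microglial marker was called by edgeR, while 3 of 6 had an unadjusted p below 0.05 and DESeq2 called 2. No marker of any list was at 0 in all libraries. The part of these differences in the receptor changes below was not tested.

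By the deposited FPKM divided by the TMM factors, auxiliary subunits led the levels in both genotypes. In the mutant, Cnih2 had the highest level with 78.8 ± 7.05 FPKM, before Cacng7 with 63.4 ± 2.74 FPKM, Cacng4 with 48.7 ± 0.735 FPKM and Grik5 with 38.3 ± 1.94 FPKM. In the wild type, Cnih2 stood at 119 ± 9.19 FPKM, before Cacng4 with 71.4 ± 3.80 FPKM, Cacng7 with 56.6 ± 4.90 FPKM and Grik3 with 43.0 ± 3.54 FPKM. With the lengths behind the deposited FPKM, none of these neighbours in the order overlapped in its libraries. With GENCODE M21 exon lengths, Cnih2 and Cacng7 were equal in the mutant, at 33.6% of the summed FPKM of AMPA auxiliary genes each, so the order depends on the lengths used. With the lengths behind the deposited FPKM again, Grik3 ranked 7 among the 34 in the mutant and 4 in the wild type, and Grm5 ranked 22 in the mutant and 12 in the wild type. Grm6 and Grin2a were the lowest in both.

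**Figure D2:**
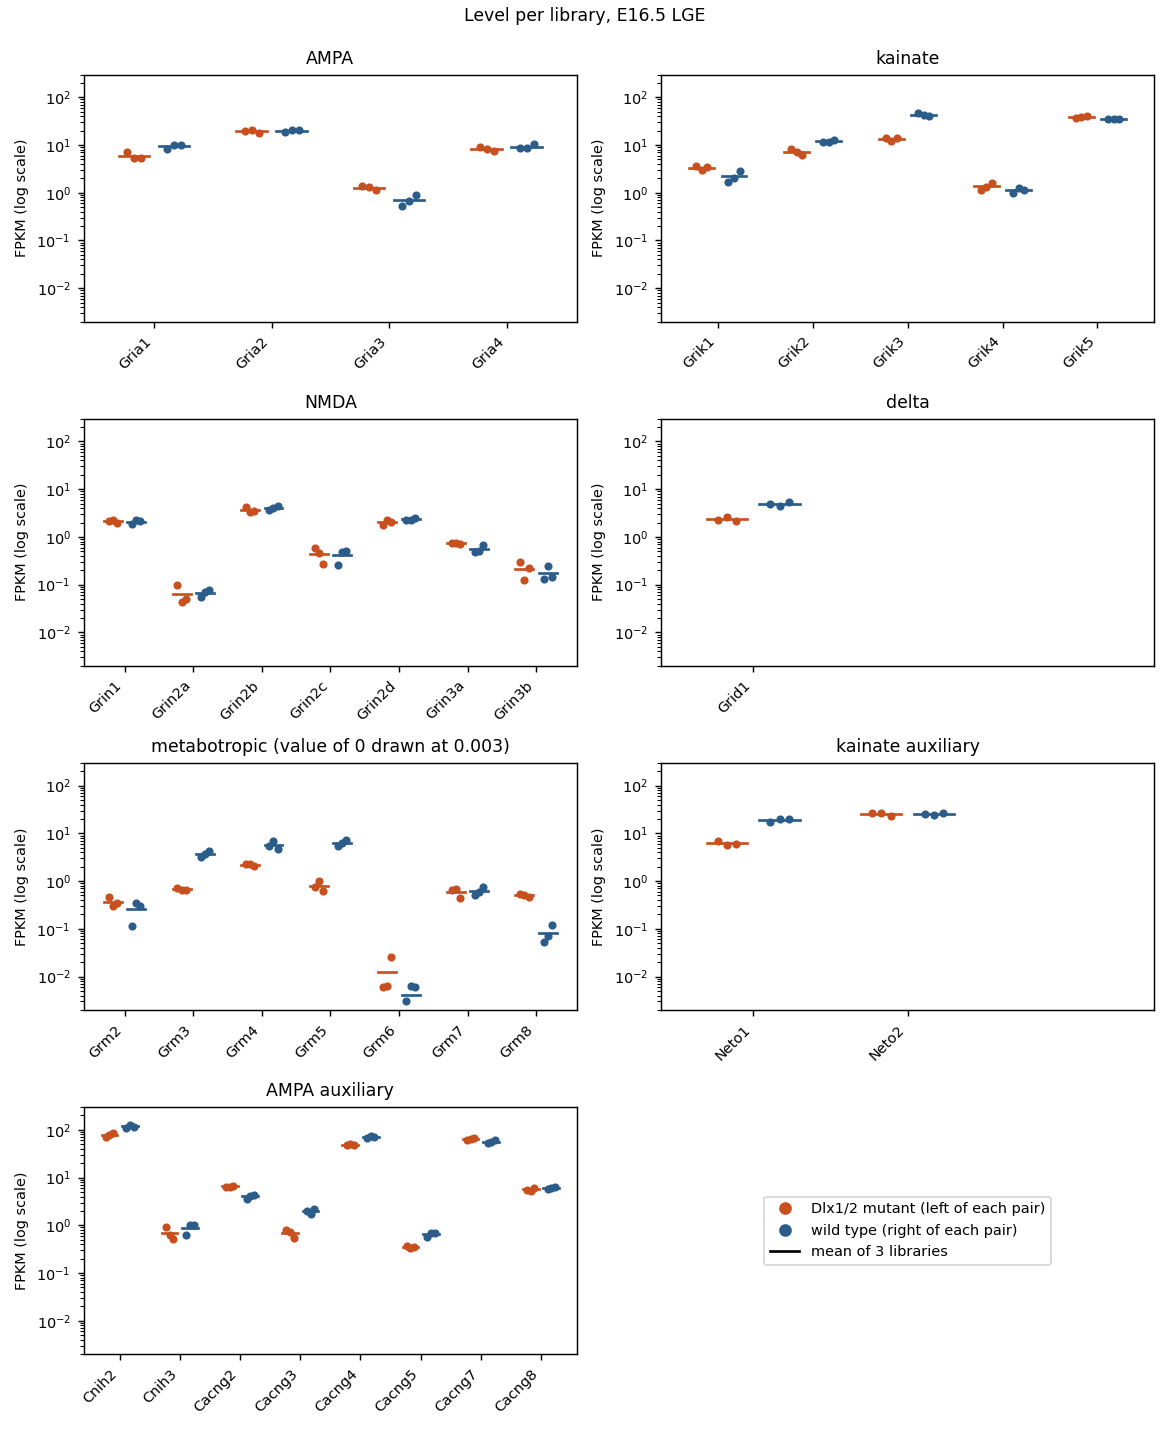
FPKM per library on a log axis for the 34 genes by class, Dlx1/2 mutant left and wild type right of each pair, with the mean of 3 libraries as a line. The mutant points of Grik3, Grm3, Grm4, Grm5 and Neto1 lie below all wild type points, and those of Grm8 and Cacng2 lie above them.

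Among the 4 AMPA receptor subunits, 1 fell and 1 rose, beside 12.8% and 11.2% of all genes tested. The subunit with the highest level did not pass the test. Gria1 (chr11:57011387-57330244 on GRCm38, as are the gene positions that follow) encodes GluA1, whose trafficking to synapses is regulated by activity. It had 85, 63.9 and 63.7 CPM in the mutant libraries and 100.5, 119.6 and 120.3 CPM in the wild type libraries. No mutant library reached the lowest wild type library, and the log2 fold change was −0.68 ± 0.162 (adjusted p = 0.00615). Gria3, which encodes GluA3 and is X-linked, had 25.9, 23.8 and 20.5 CPM in the mutant and 9.47, 12.2 and 16.6 CPM in the wild type. Every mutant library lay above every wild type library, with a log2 fold change of 0.86 ± 0.253 (adjusted p = 0.0137). This call was lost without mutant replicate 1 (0.78, adjusted p = 0.0519) or without wild type replicate 2 (0.82, adjusted p = 0.0542), while the adjusted p over all alternatives ran from 0.000184 to 0.0542. Gria2 encodes GluA2, the subunit that keeps AMPA receptors from passing calcium once its transcript has been edited. It had 439, 441 and 385 CPM in the mutant and 419, 449 and 451 CPM in the wild type, which overlap (−0.06 ± 0.073, adjusted p = 0.554). Gria4, which encodes GluA4, overlapped too, with 50.7 ± 4.72 CPM in the mutant and 56.7 ± 5.92 CPM in the wild type (−0.16 ± 0.114, adjusted p = 0.276).

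Summed per length, the AMPA subunits reached 34.7 ± 3.04 FPKM in the mutant and 39.5 ± 2.65 FPKM in the wild type, and the libraries overlapped. Their make-up differed more than the sum. Gria1 held 17% ± 1.79 of the class in the mutant and 23.9% ± 1.05 in the wild type. Gria2 held 55.7% ± 2.22 in the mutant and 51.0% ± 1.57 in the wild type. Gria3 held 3.66% ± 0.112 in the mutant and 1.74% ± 0.381 in the wild type. For these 3 subunits the genotypes did not overlap, whereas Gria4 held 23.7% ± 0.428 in the mutant and 23.3% ± 1.39 in the wild type, with overlap. With GENCODE M21 exon lengths, Gria1 held 23.7% in the mutant and 32.7% in the wild type. Gria4 then held 16.3% in the mutant and 15.7% in the wild type. Whether Gria1 or Gria4 was ahead in the mutant thus depends on the lengths used. A share within a class does not depend on the scaling of the libraries, but a fall of 1 subunit raises the shares of the others.

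Kainate receptors need at least 1 of the subunits GluK1 to GluK3, encoded by Grik1 to Grik3, while GluK4 and GluK5, encoded by Grik4 and Grik5, bind glutamate with high affinity and reach the surface only together with them. The bases before the start of Grik3, the subunit that fell most, and of Grik5, the most abundant subunit in the mutant, are shown because these genes of one family behaved differently. Each is the 250 bases before the gene's first annotated start in RefSeq on GRCm38.p6, 5′ to 3′ on the gene's strand, with CG pairs in capitals. The Grik3 stretch is chr4:125490446-125490695 on the plus strand, and that of Grik5 is chr7:25072370-25072619 on the minus strand.
Grik3: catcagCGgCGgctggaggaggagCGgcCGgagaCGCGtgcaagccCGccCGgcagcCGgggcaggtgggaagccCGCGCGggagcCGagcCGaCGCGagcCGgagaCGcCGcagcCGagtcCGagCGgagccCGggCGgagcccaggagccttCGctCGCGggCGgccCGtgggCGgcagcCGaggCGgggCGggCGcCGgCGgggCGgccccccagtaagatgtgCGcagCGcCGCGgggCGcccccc
Grik5: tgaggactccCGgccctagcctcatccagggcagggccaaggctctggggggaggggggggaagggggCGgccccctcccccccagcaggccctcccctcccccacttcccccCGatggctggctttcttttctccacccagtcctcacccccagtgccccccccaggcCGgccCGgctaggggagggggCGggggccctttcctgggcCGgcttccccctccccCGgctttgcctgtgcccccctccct
The Grik3 stretch is 82.0% G and C and holds 42 CG pairs, a number that 1.61% of 13905 such stretches of tested genes reach. That of Grik5 is 75.2% G and C and holds 8 CG pairs, which 75.7% of the stretches reach, while the median is 15 and 98.8% hold at least 1. No methylation was measured here.

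Grik3 (chr4:125490700-125714173) fell most among the kainate subunits. It had 123, 107 and 126 CPM in the mutant libraries and 422, 376 and 361 CPM in the wild type libraries, far apart in all 6. The log2 fold change was −1.70 ± 0.098 (adjusted p = 5.16e-06). Grik2, which encodes GluK2, had 96.5, 84.8 and 70.6 CPM in the mutant and 131, 136 and 148 CPM in the wild type. Its libraries did not overlap either, at a log2 fold change of −0.72 ± 0.141 (adjusted p = 0.00228). Grik1 took the opposite sign, with 11.3, 9.55 and 10.6 CPM in the mutant and 5.36, 6.37 and 9.11 CPM in the wild type. Its mutant libraries all lay above the wild type ones, but it was not called (0.58 ± 0.235, adjusted p = 0.0631), except without wild type replicate 3 (0.83, adjusted p = 0.0102). The high-affinity subunits were not called. Grik5 had 249, 268 and 274 CPM in the mutant and 241, 245 and 243 CPM in the wild type, without overlap but with a log2 fold change of only 0.12 ± 0.043 (adjusted p = 0.119). Grik4 had 9.35 ± 1.57 CPM in the mutant and 7.70 ± 0.904 CPM in the wild type, with overlap (0.27 ± 0.169, adjusted p = 0.26).

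The class as a whole summed to 62.95, 62.63 and 64.87 FPKM in the mutant and 96.05, 92.42 and 92.3 FPKM in the wild type. These sums did not overlap, and their log2 ratio was −0.56. With the exon lengths of GENCODE M21 in place of those behind the deposited FPKM it was −0.48. Split by role, Grik1 to Grik3 together had 23.8 ± 1.71 FPKM in the mutant and 57.2 ± 2.45 FPKM in the wild type, a ratio of 0.417. Grik4 and Grik5 together had 39.7 ± 2.14 FPKM in the mutant and 36.4 ± 0.366 FPKM in the wild type, a ratio of 1.09. The leading subunit of the class differed by genotype. Grik5 held 60.4% ± 2.61 of kainate FPKM in the mutant and 37.8% ± 1.06 in the wild type, while Grik3 held 20.8% ± 1.51 in the mutant and 45.9% ± 2.74 in the wild type. With GENCODE lengths, which give different absolute shares, Grik3 held 18% in the mutant and 41.8% in the wild type and Grik5 held 69.2% in the mutant and 45.7% in the wild type, so that Grik5 then led in both genotypes. Grik2 held 11.4% ± 1.93 in the mutant and 12.8% ± 1.04 in the wild type, with overlap.

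Neto1 and Neto2 encode single-pass membrane proteins that bind kainate receptors and slow their closing, and Neto1 also binds NMDA receptors. Neto1 had 24.3, 20.1 and 21.2 CPM in the mutant and 61.1, 72.0 and 70.7 CPM in the wild type. The groups were far apart, with a log2 fold change of −1.64 ± 0.111 (adjusted p = 1.72e-05). Its paralog Neto2 had 152, 149.8 and 133 CPM in the mutant and 143, 138 and 148 CPM in the wild type. These overlap, and the log2 fold change was 0.02 ± 0.068 (adjusted p = 0.862). Neto2 was the more abundant of the pair per length in both genotypes. Neto1 held 19.4% ± 1.54 of the pair's FPKM in the mutant and 43.0% ± 2.43 in the wild type, and 9.99% in the mutant against 25.9% in the wild type with GENCODE lengths.

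No NMDA receptor gene was called. By edgeR 0 of 7 were called, beside 24.0% of all genes tested, a share at which few of 7 genes would be called in any case. Of the 7, 1 had an unadjusted p below 0.05 (Grin3a), and DESeq2 called 0. Grin1 encodes GluN1, the subunit every NMDA receptor needs. It had 31.1, 33.6 and 29.2 CPM in the mutant and 26.6, 33.0 and 31.0 CPM in the wild type, with full overlap (0.05 ± 0.109, adjusted p = 0.767). Grin2b, which encodes the GluN2B subunit typical of embryonic receptors, had 128, 99.9 and 103 CPM in the mutant and 108, 124 and 137 CPM in the wild type. These overlap as well, at −0.16 ± 0.149 (adjusted p = 0.367). Grin2d, which encodes GluN2D, another early subunit, had 10.8, 13.5 and 12.8 CPM in the mutant and 14.0, 13.5 and 15 CPM in the wild type. Its mutant libraries lay below the wild type ones by a narrow margin (−0.20 ± 0.106, adjusted p = 0.245). Grin3a encodes GluN3A, a subunit that lowers calcium entry and is prominent early in life. It had 13.9, 14.1 and 13.2 CPM in the mutant and 8.99, 9.36 and 12.8 CPM in the wild type, apart but not called (0.39 ± 0.162, adjusted p = 0.087), except without wild type replicate 3 (0.58, adjusted p = 0.0117).

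The remaining NMDA subunits were rare, and the genotypes overlapped. Grin2a, typical of adult synapses, had 1.61 ± 0.775 CPM in the mutant and 1.68 ± 0.304 CPM in the wild type. Grin2c had 2.38 ± 0.833 CPM in the mutant and 2.27 ± 0.725 CPM in the wild type, and Grin3b had 1.10 ± 0.447 CPM in the mutant and 0.876 ± 0.311 CPM in the wild type. Standard errors of 0.396 to 0.445 on the log2 scale limit what could be seen in these 3 genes. Of the exon bases of Grin1 13.5% and of Grin3b 32.1% overlap a gene on the opposite strand that is also in the table, and the strand setting of the counting is unknown, so reads of these partners cannot be told apart from theirs. The sum of the class was 9.30 ± 0.547 FPKM in the mutant and 9.70 ± 0.970 FPKM in the wild type, and of the 7 shares that of Grin3a alone was apart, at 8.0% ± 0.339 in the mutant and 5.77% ± 0.740 in the wild type.

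Grid1 (chr14:34820108-35583379) encodes GluD1, a delta receptor subunit that binds cerebellins instead of carrying a glutamate current. It had 15.5, 17.8 and 14.7 CPM in the mutant and 33.3, 30.5 and 37.7 CPM in the wild type. All mutant libraries were well below the wild type ones, and the log2 fold change was −1.08 ± 0.121 (adjusted p = 0.000321).

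**Figure D3:**
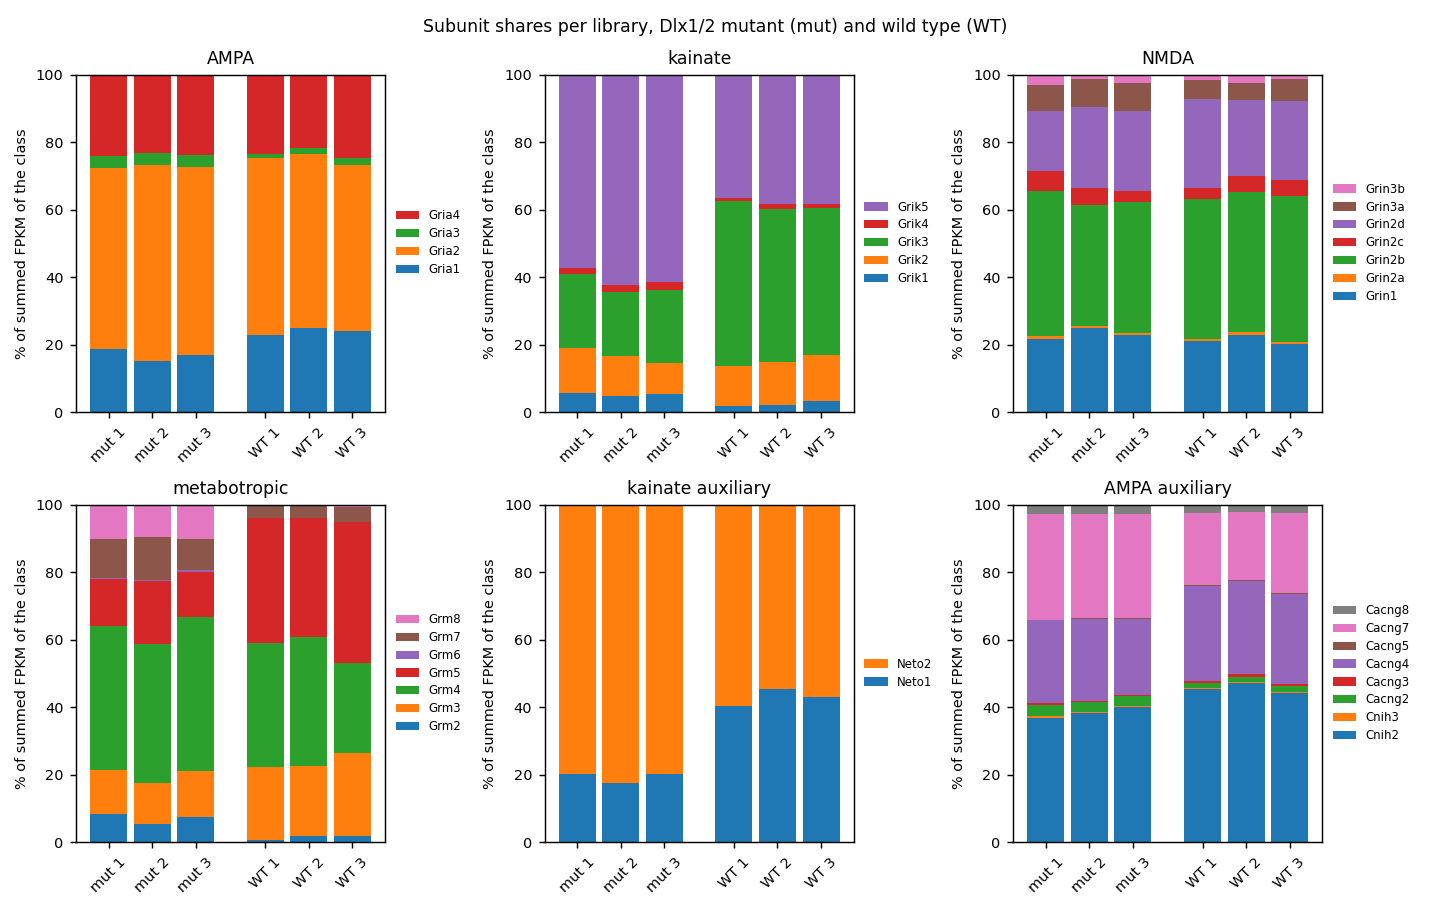
Share of each subunit in the summed FPKM of its class, in percent, as stacked bars for the 3 mutant libraries (mut 1 to 3) left and the 3 wild type libraries (WT 1 to 3) right. Grik5 takes 60.4% of kainate FPKM in the mutant and 37.8% in the wild type, and Grm5 takes 15.4% of metabotropic FPKM in the mutant and 38.1% in the wild type.

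Metabotropic receptors showed the largest changes in both directions among the classes. Grm5 (chr7:87584168-88134907), the member of group I among the genes followed here, encodes mGluR5, which couples to phospholipase C and is abundant in striatal neurons. It had 8.11, 10.7 and 6.54 CPM in the mutant and 58.4, 66.5 and 77.9 CPM in the wild type. The highest mutant library was far below the lowest wild type one, and the fall was 8.01-fold, or −3.0 ± 0.237 on the log2 scale (adjusted p = 1.74e-05). Grm3 belongs to group II, which inhibits adenylyl cyclase, and encodes mGluR3 (chr5:9485541-9725170). Its level was 2.19, 2.02 and 1.95 CPM in the mutant and 9.85, 11.2 and 13.3 CPM in the wild type. The groups did not overlap, and the log2 fold change was −2.48 ± 0.133 (adjusted p = 2.73e-05). The other group II gene, Grm2, had 3.47, 2.21 and 2.58 CPM in the mutant and 0.861, 2.60 and 2.29 CPM in the wild type, with overlap (0.47 ± 0.519, adjusted p = 0.391).

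Group III receptors also inhibit adenylyl cyclase and sit mostly on presynaptic endings. Grm4, which encodes mGluR4, had 15.1, 14.4 and 13.7 CPM in the mutant and 35.6, 44.5 and 30.4 CPM in the wild type. It fell without overlap, by 1.36 ± 0.164 on the log2 scale (adjusted p = 0.00032). Grm8 (chr6:27275119-28135178), which encodes mGluR8, went the other way. It had 6.89, 6.52 and 5.85 CPM in the mutant and 0.670, 0.910 and 1.51 CPM in the wild type, where 7, 14 and 25 reads were counted. It rose in every mutant library, with a log2 fold change of 2.58 ± 0.329 (adjusted p = 0.000255). Grm7 had 4.36 ± 1.02 CPM in the mutant and 4.57 ± 0.920 CPM in the wild type, with overlap (−0.08 ± 0.264, adjusted p = 0.836).

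The summed metabotropic level was 5.48, 5.43 and 4.64 FPKM in the mutant and 14.9, 17.9 and 17.6 FPKM in the wild type, a log2 ratio of −1.70. That was the lowest ratio among the 7 classes, and each of the 3 groups lay lower without overlap. Group I had 0.801 ± 0.199 FPKM in the mutant and 6.41 ± 0.931 FPKM in the wild type, and group II had 1.04 ± 0.123 FPKM in the mutant and 4.01 ± 0.657 FPKM in the wild type. Group III had 3.34 ± 0.265 FPKM in the mutant and 6.40 ± 1.03 FPKM in the wild type. In shares, Grm5 held 15.4% ± 2.90 in the mutant and 38.1% ± 3.45 in the wild type, without overlap. Grm4 held 43.0% ± 2.23 in the mutant and 34% ± 6.38 in the wild type, although its own level fell. Grm4 was ahead of Grm5 in all 3 mutant libraries and also in wild type replicate 2, where it held 38.4% and Grm5 35.2%. Grm8 held 9.85% ± 0.264 in the mutant and 0.480% ± 0.175 in the wild type.

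The bases before Grm3 are shown beside those of Grik3, since both genes fell strongly. They are the 250 bases before its RefSeq start at chr5:9725353-9725602 on the minus strand of GRCm38.p6, with CG pairs in capitals.
Grm3: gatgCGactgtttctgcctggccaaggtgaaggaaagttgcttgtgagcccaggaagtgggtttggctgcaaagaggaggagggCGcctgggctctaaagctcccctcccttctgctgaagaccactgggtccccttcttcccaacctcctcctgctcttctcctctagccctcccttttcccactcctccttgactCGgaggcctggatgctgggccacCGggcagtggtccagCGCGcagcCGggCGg
This stretch is 62.4% G and C with 8 CG pairs, as many as before Grik5 and fewer than the 42 before Grik3, so that these 2 genes, which both fell, differ in their CG content.

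The auxiliary subunits of AMPA receptors include the genes with the highest levels followed here. Cornichons help AMPA receptors leave the endoplasmic reticulum and slow their closing. Cnih2 had 89.4, 96.7 and 107 CPM in the mutant and 138, 159.7 and 143 CPM in the wild type. It fell without overlap, at −0.59 ± 0.098 (adjusted p = 0.00153). Cnih3 had 3.21 ± 1.0 CPM in the mutant and 4.16 ± 1.04 CPM in the wild type, with overlap (−0.39 ± 0.335, adjusted p = 0.351). Together the cornichons had 79.5 ± 6.85 FPKM in the mutant and 119.6 ± 9.35 FPKM in the wild type, a ratio of 0.665.

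TARPs bind AMPA receptors along their whole life and anchor them to postsynaptic scaffolds. Of the 4 type I TARPs, 2 fell and 1 rose, beside 12.8% and 11.2% of all genes tested. Cacng4 (chr11:107732357-107794557), which encodes TARP gamma-4, a form typical of the developing brain, had 182, 188 and 183 CPM in the mutant and 259.9, 287 and 264 CPM in the wild type. The spread in the mutant was small, and the log2 fold change was −0.55 ± 0.045 (adjusted p = 0.000148). Cacng3, which encodes gamma-3, had 3.35, 3.10 and 2.33 CPM in the mutant and 8.42, 7.41 and 9.41 CPM in the wild type. It fell without overlap, at −1.52 ± 0.187 (adjusted p = 0.000673). Cacng2 (chr15:77991748-78120028) encodes gamma-2, or stargazin, the first TARP to be described. It had 35.5, 35.0 and 36.9 CPM in the mutant and 19.7, 22.8 and 24.2 CPM in the wild type. Every mutant library lay above the wild type ones (0.68 ± 0.090, adjusted p = 0.00122), and 5.86% of its exon bases overlap an antisense gene that is also in the table. Cacng8, which encodes gamma-8, had 20.3 ± 1.57 CPM in the mutant and 21.4 ± 1.15 CPM in the wild type, with overlap (−0.08 ± 0.078, adjusted p = 0.573).

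The type II TARPs divided as well. Cacng5, which encodes gamma-5, had 2.50, 2.28 and 2.39 CPM in the mutant and 3.83, 4.68 and 4.65 CPM in the wild type. It fell without overlap at a low level (−0.88 ± 0.10, adjusted p = 0.00762). Cacng7, which encodes gamma-7, had 166, 173 and 182 CPM in the mutant and 145, 150.0 and 170.2 CPM in the wild type. The groups overlapped at their edges, and it was not called (0.16 ± 0.079, adjusted p = 0.129), except without wild type replicate 3 (0.24, adjusted p = 0.0347). Cacng4 and Cacng5 lie 80.05 kb apart on chromosome 11 and both fell, and Cacng7 and Cacng8 lie 22.46 kb apart on chromosome 7 and neither was called. Summed per length, type I TARPs had 61.6 ± 0.517 FPKM in the mutant and 83.4 ± 3.91 FPKM in the wild type, without overlap, and type II TARPs had 63.8 ± 2.74 FPKM in the mutant and 57.2 ± 4.95 FPKM in the wild type, with overlap. All 8 genes together had 204.9 ± 9.99 FPKM in the mutant and 260.2 ± 13.98 FPKM in the wild type. Within that sum Cnih2 held 38.4% ± 1.56 in the mutant and 45.6% ± 1.56 in the wild type, Cacng7 held 31.0% ± 0.170 in the mutant and 21.8% ± 1.83 in the wild type, and Cacng2 held 3.17% ± 0.111 in the mutant and 1.55% ± 0.112 in the wild type.

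Homeodomain proteins, Dlx proteins among them, bind sites with the core TAATT. These letters were searched on both strands (AATTA on the other) from 250 bases before to 50 after each RefSeq start on GRCm38.p6, counting overlapping matches as 1. The table gave 28 such windows for 23 of the 34 genes. Gria1, Gria3, Grik1, Grin2a, Grin2b, Grin3a, Grid1, Grm4, Grm5, Neto1 and Cacng4 have no window in it. Of the 28 windows 2 held the letters, or 7.14%, beside 16.9% of 13905 windows of tested genes. Both matches lie after the RefSeq start and belong to TARP genes that moved in opposite directions. They are shown within 30 bases each, the matched letters in capitals, at chr7:122671758-122671787 on the plus strand for Cacng3, which fell, and at chr15:78119231-78119260 on the minus strand for Cacng2, which rose.
Cacng3: agtaccatgaagAATTAtgaggatgtgtga
Cacng2: gcgctgtggaagccatctccaAATTAgcga
The longer TAATTA was in 0 of the 28 windows and in 2.70% of the windows of tested genes. A match is only a run of letters, no binding was measured here, and sites outside these windows were not searched. The windows of Cacng3 and Cacng2 lie inside their GENCODE M21 genes, at chr7:122670492-122769393 and chr15:77991748-78120028. For both genes GENCODE thus begins upstream of the RefSeq start used.

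Other genes of glutamate signalling were read from 6 lists of 51 genes, of which 50 were tested, with 10 higher, 15 lower and a median log2 fold change of −0.14. Over all genes tested, 11.2% were higher and 12.8% lower, with a median of 0.00. The 6 lists were not tested as lists, so their counts and medians are descriptions. Vesicular transporters load glutamate into synaptic vesicles and mark the neurons that release it. Slc17a6, which encodes VGLUT2, had 18.1, 19.1 and 11.8 CPM in the mutant and 1.53, 6.76 and 4.34 CPM in the wild type. It rose without overlap (1.90 ± 0.661, adjusted p = 0.0096). Of the pallial markers above, 5 rose too, while Tbr1 and Eomes did not, and their part in this rise was not tested. Slc17a7 (VGLUT1) had 0.209 ± 0.0753 CPM in the mutant and 0.234 ± 0.264 CPM in the wild type, near the level of 3 reads, and was not tested. Slc17a8 (VGLUT3) had 1.18 ± 0.450 CPM in the mutant and 1.23 ± 0.283 CPM in the wild type (−0.07 ± 0.384, adjusted p = 0.907).

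Of 4 plasma membrane transporters, which clear glutamate, 1 rose and 1 fell, beside 11.2% and 12.8% of all genes tested. Slc1a1, the neuronal EAAC1, had 14.6, 10.9 and 8.55 CPM in the mutant and 17.5, 21.1 and 23.1 CPM in the wild type. It fell without overlap (−0.86 ± 0.251, adjusted p = 0.0141), but missed the threshold without mutant replicate 2, where adjusted p = 0.0505 against 0.000260 to 0.0505 over all alternatives. Slc1a2, the glial GLT-1, had 97.7, 75.0 and 56.7 CPM in the mutant and 40.7, 44.8 and 57.1 CPM in the wild type. Its libraries overlapped although it was called (0.68 ± 0.269, adjusted p = 0.0423), and the call was lost with the replicate number as a block (adjusted p = 0.103, with 0.00173 to 0.123 over all alternatives). It was also lost without mutant replicate 1 or 2 and without wild type replicate 1 or 2, at 0.47 to 0.70 on the log2 scale. Among 6 enzymes, Glul, the glutamine synthetase of glia, rose to 232 ± 2.84 CPM in the mutant, against 147 ± 18.5 CPM in the wild type (0.66 ± 0.103, adjusted p = 0.000931). The aspartate aminotransferases fell: Got1 had 33.1 ± 2.23 CPM in the mutant and 47.3 ± 5.42 CPM in the wild type, and Got2 had 125 ± 3.94 CPM in the mutant and 153 ± 6.48 CPM in the wild type.

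Scaffolds of the postsynaptic density, which hold receptors and their signalling partners in place, numbered 19. Of these, 8 fell and 2 rose, beside 12.8% and 11.2% of all genes tested, with a median log2 fold change of −0.25. Only 1 rose with the replicate block, or without mutant replicate 1, mutant replicate 2 or wild type replicate 2. Dlg2, which encodes PSD-93, had 28.5, 24.0 and 21.9 CPM in the mutant and 62.0, 70.4 and 82.4 CPM in the wild type. It fell without overlap (−1.53 ± 0.162, adjusted p = 0.000108). Dlgap3, which encodes the scaffold SAPAP3, known for its role in striatal synapses, had 134, 152 and 160.0 CPM in the mutant and 50.3, 49.4 and 46.9 CPM in the wild type. It rose without overlap, against the direction of most called scaffolds (1.60 ± 0.083, adjusted p = 5.55e-06). Its relative Dlgap4 fell, with 290.0 ± 14.6 CPM in the mutant and 382 ± 20.4 CPM in the wild type (−0.40 ± 0.061, adjusted p = 0.00175).

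Of the 13 other receptor partners, 5 rose and 2 fell, beside 11.2% and 12.8% of all genes tested, and the median log2 fold change was 0.50. Only 1 fell with any library but wild type replicate 1 left out. Shisa6, a partner of AMPA receptors unrelated to TARPs, had 23.3, 17.9 and 17.1 CPM in the mutant and 3.73, 4.03 and 5.49 CPM in the wild type. It rose without overlap (2.12 ± 0.218, adjusted p = 0.000118). Cbln4, a secreted cerebellin, had 7.26 ± 0.528 CPM in the mutant and 2.18 ± 0.576 CPM in the wild type (1.70 ± 0.223, adjusted p = 0.000603), whereas Grid1, whose product binds members of the cerebellin family, fell. Frrs1l, which helps assemble AMPA receptors in the endoplasmic reticulum, fell to 15.3 ± 3.16 CPM in the mutant, against 39.2 ± 5.11 CPM in the wild type (−1.36 ± 0.197, adjusted p = 0.000586). Of 6 kinases that act on these receptors, 2 fell and by edgeR 0 rose, also by DESeq2. Camk2a had 25.2, 25.2 and 26.8 CPM in the mutant and 50.5, 50.5 and 56.0 CPM in the wild type. Its groups did not overlap (−1.02 ± 0.058, adjusted p = 4.07e-05). Camk2b fell as well, with 47.3 ± 4.92 CPM in the mutant and 74.8 ± 13.1 CPM in the wild type (−0.66 ± 0.171, adjusted p = 0.00884).

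**Figure D4:**
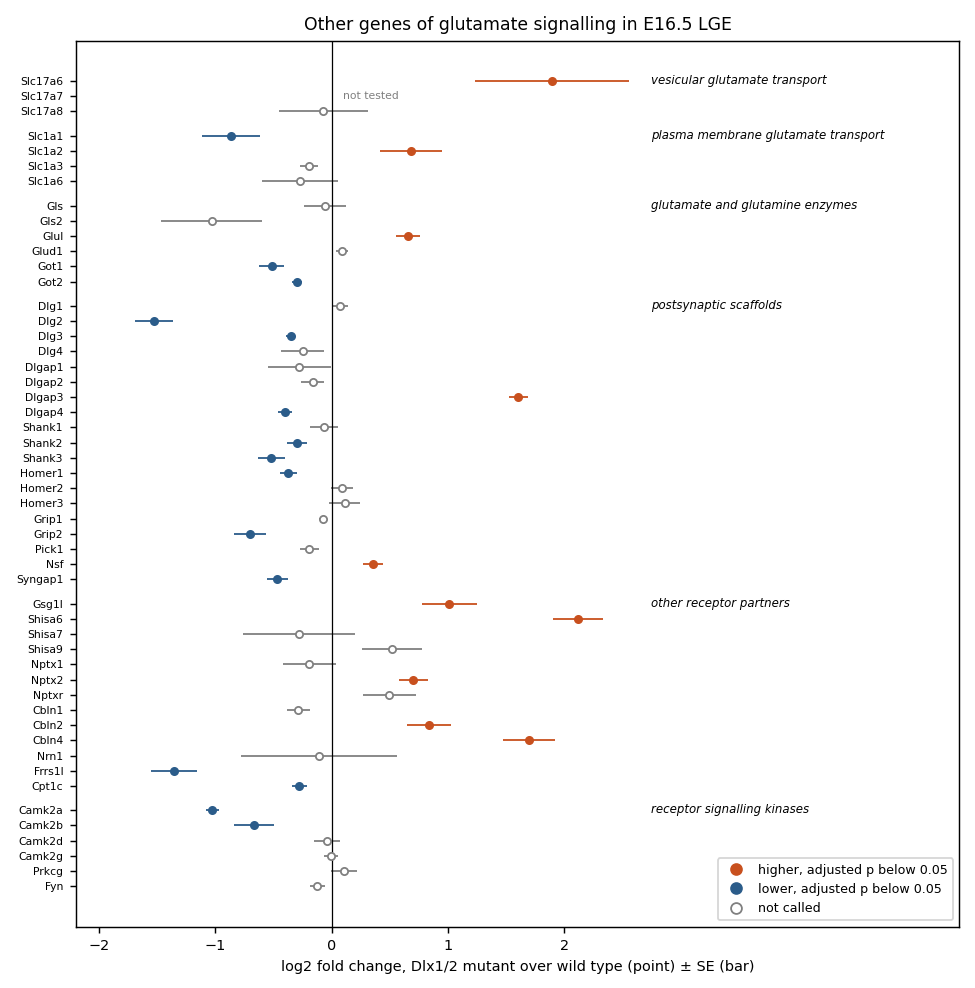
Log2 fold change, Dlx1/2 mutant over wild type, with its standard error as a bar, for the 50 tested genes of the 6 lists of transport, enzymes, scaffolds, partners and kinases, 3 libraries a genotype, coloured by call. Shisa6 at 2.12 and Slc17a6 at 1.90 lie at the upper end, and Dlg2 at −1.53 and Frrs1l at −1.36 at the lower end.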

How the data were processed

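RNA-seq of 3 Dlx1/2 mutant and 3 wild type LGE libraries was taken from 1 deposited table, with a row per gene. The column names call the deposited values counts, and they were taken as reads per gene without normalisation. In the deposited FPKM, each value was its count over the library total times a constant of the gene (11418 of 11418 genes above 50 counts throughout, within 0.0001). The lengths behind this factor are not given, and for the 34 genes the exon length in GENCODE M21 was 0.504 to 2.37 times the implied one. Tools in the submitters' processing notes are HISAT2 2.0.4, StringTie 1.3.0 and edgeR, with GRCm38.p4 and mm10 as builds. Which program counted the reads, on which strand and with which annotation is not stated. Gene IDs were matched to GENCODE M21 (99.4%), and 25 symbols turned into dates were restored by ID.

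Counts were fitted in R 4.3.3 with edgeR 4.0.16 (limma 3.58.1): filterByExpr by group (15326 genes), TMM scaling, two-sided quasi-likelihood F test, Benjamini-Hochberg adjustment, threshold 0.05, biological coefficient of variation 0.122. The standard error of a log2 fold change comes from log2 CPM with 0.5 added to each count. All FPKM levels, class sums and shares use deposited FPKM divided by the library's TMM factor, without a test. Alternatives were the replicate number as a block, RLE scaling, no filter, DESeq2 1.42.0, leaving out each library, sums of CPM and, chosen after seeing the data, GENCODE lengths. The script was tested on simulated counts.

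The 34 genes and all lists were chosen with earlier results of these data known. The rule for naming allowed all 34, up to 3 called genes of each pathway list with the smallest adjusted p, the vesicular transporters, and from each marker list the called gene with the smallest adjusted p and the one with the highest CPM. Not all genes it allowed from the marker lists are named. Replicate numbers come from the labels, which do not say what they share. Same-numbered libraries did not deviate together (correlations −0.176, 0.043 and −0.168), so the fit has no block. Column names begin differently in the 2 genotypes, and no batch is labelled: one that follows the names and genotype cannot be told apart. Nothing says that libraries came from separate embryos, so the p-values rest on a spread that may be technical. Promoter sequences are from RefSeq (GRCm38.p6). The authors' deposited p-values were not used.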

Additional observations from a re-analysis of the deposited data

How the results depend on the processing

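The 12 genes called lower stayed at 12 under each of the 10 alternative fits, and of the 15 called genes 14 kept their call and direction in all of them, Gria3 being the exception. The count called higher, 3 in the main result, was 2 to 6 with 1 library left out. It was 6 without wild type replicate 3, when Grik1, Grin3a and Cacng7 were called. Over all genes, 1715 were higher and 1958 lower, against 1223 and 1457 with the replicate block, 1708 and 1959 with RLE, 1603 and 1903 without a filter, 1575 and 1855 by DESeq2, and 1211 to 1626 and 1416 to 1956 with 1 library left out. The numbers share no stated source, and no library correlated best with the library of its own number in the other genotype. With the replicate block, 12 of the genes followed here were lower and 3 higher. The log2 ratio of the kainate sum was −0.69 from CPM and −0.48 with GENCODE lengths, beside −0.56. That of the Neto pair was −0.34 from CPM and −0.26 with GENCODE lengths, beside −0.48.

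The cause of the sign changes was not tested. They occurred only in uncalled genes with a main log2 fold change smaller than its standard error, and only with 1 library left out. Over these fits the log2 fold change was −0.036 to 0.116 for Grin1, −0.537 to 0.148 for Grin2a, −0.222 to 0.276 for Grin2c, −0.01 to 0.639 for Grin3b, −0.21 to 0.096 for Grm7, −0.015 to 0.076 for Neto2, −0.068 to 0.084 for Csf1r, a microglial marker, −0.041 to 0.319 for the globin Hbb-bs and −0.343 to 0.193 for Slc17a8. Grm6, Slc17a7 and Emx1 held too few reads to be tested.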
